A study of Mus musculus with 7 samples.

Results

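Cck, Apln, Kng1, Npy1r, Gfra1 and P2rx6 are 6 genes of extracellular signalling, 3 for peptide precursors and 3 for proteins of the cell surface, of 31829 gene names on the array. They were picked by name because their signal was much higher in muscle cells given exosomes of palmitate-treated cells, so that difference is described here without a test. Their 7 probes, of 39429 on the array, were found by the gene name that the array annotation gives. Kng1 has 2 probes and the other genes 1 each.

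The recipient cells were C2C12, a mouse line established from muscle whose myoblasts fuse into myotubes when growth serum is replaced by a low level of horse serum. Exosomes are small vesicles that cells release and other cells take up. They came from donor C2C12 cultures given palmitate, a saturated fatty acid carried on albumin (BSA), at 0.5 mmol/l, or given BSA alone. Collection began only after the fatty acid had been withdrawn from the donors, with an interval of 9 h. Recipients of the vesicles from BSA cultures are EXO-Post BSA (n = 4) and recipients of those from palmitate cultures are EXO-Post Palm (n = 3). All recipients were kept with exosomes in serum-free medium for 24 h. The labels call the samples biological replicates and the cells myoblasts, while the methods speak of myotubes. The cell line field of the labels counts up by 1 from sample to sample, starting at C2C12, while the source field gives C2C12 for all 7, and they were taken as C2C12. No sample without exosomes was analysed here, so the 2 groups can be compared only with each other, and a cell line from 1 source stands for muscle.

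Peptide hormones are made as longer precursors that proteases in the secretory pathway cut and other enzymes modify before release. They act on cells that carry a matching receptor, mostly receptors coupled to G proteins. Cholecystokinin is known from intestinal endocrine cells and from neurons, kininogen from liver and plasma, and apelin from fat, vessels and muscle. The 6 genes do not all fit the words peptide hormone or peptide receptor. GFRA1 is the co-receptor of a protein growth factor, GDNF, and P2RX6 is a subunit of channels that ATP opens.

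RNA was labelled with 1 dye and hybridised to Agilent mouse arrays. Each value below is the log2 of the scanner software's processed signal minus the 75th percentile of that array, so 0 is the level of the probe at the 75th percentile and a step of 1 is a 2-fold step in signal. That percentile ranged over the arrays from 549.4 to 1621 intensity units. The scanner software called 48.4 to 70.3% of the probes of an array well above background. Normalised values correlated at 0.962 to 0.984 between EXO-Post BSA arrays, 0.948 to 0.969 between EXO-Post Palm arrays and 0.947 to 0.984 across the groups. There were 4 slides. On slide 1, EXO-Post Palm replicate 1 shared the glass with EXO-Post BSA replicates 1 and 2. On slide 3, EXO-Post Palm replicate 3 was beside EXO-Post BSA replicate 4. Slides 2 and 4 had a single array each, EXO-Post BSA replicate 3 and EXO-Post Palm replicate 2. As a check of the cell type, all 10 skeletal muscle markers were measured above background often enough to be tested, 9 of them on all 7 arrays, with troponin C2 (Tnnc2) at 8.09 ± 0.15 (SD, n = 4) in EXO-Post BSA and 7.76 in EXO-Post Palm. None of the 10 passed the test between groups (limma, adjusted p for Tnnc2 = 0.671).

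The 250 bases before the annotated start of 5 of the genes are printed because the members were raised together and a reader may want to compare what lies before them. They are RefSeq sequence of the build GRCm38.p6. Kng1 has no entry. Capitals mark matches on either strand to 6 short motifs: the TATA box, spelled TATAAA, the GC box, spelled GGGCGG, the CCAAT box, the core of a cAMP response element, spelled TGACG, the AP-1 motif, spelled TGANTCA, and the E-box that MYC and USF are known to bind, spelled CACGTG.
Cck: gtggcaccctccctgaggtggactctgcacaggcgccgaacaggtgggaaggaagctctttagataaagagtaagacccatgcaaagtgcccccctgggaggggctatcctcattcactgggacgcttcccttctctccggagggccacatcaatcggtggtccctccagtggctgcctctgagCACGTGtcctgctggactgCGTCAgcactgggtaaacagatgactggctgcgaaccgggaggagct
Apln: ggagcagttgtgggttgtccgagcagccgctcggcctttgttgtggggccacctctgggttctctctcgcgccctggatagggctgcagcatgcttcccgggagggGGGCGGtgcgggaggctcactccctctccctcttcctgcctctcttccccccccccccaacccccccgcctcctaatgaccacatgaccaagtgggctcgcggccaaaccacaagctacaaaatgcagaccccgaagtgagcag
Npy1r: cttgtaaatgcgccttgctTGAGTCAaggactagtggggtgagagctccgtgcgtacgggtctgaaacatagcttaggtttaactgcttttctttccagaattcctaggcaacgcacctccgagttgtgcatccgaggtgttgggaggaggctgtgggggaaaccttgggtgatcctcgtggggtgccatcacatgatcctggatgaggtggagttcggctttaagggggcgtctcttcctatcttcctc
Gfra1: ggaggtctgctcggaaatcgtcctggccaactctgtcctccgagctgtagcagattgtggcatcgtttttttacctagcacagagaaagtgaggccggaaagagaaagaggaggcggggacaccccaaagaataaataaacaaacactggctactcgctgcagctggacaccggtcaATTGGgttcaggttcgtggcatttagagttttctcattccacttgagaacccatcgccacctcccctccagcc
P2rx6: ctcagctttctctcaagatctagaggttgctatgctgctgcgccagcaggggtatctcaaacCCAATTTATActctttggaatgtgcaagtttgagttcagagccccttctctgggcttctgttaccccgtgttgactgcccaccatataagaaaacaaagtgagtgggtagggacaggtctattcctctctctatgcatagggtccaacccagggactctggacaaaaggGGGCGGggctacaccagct

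The Cck window is chr9:121495695-121495944 (minus strand), Apln chrX:48034854-48035103 (minus), Npy1r chr8:66697172-66697421 (plus), Gfra1 chr19:58455399-58455648 (minus) and P2rx6 chr16:17561635-17561884 (plus). The Cck window held CACGTG at -66 to -61, counted from the annotated start, and TGACG on the opposite strand at -47 to -43. CACGTG is in 6.02% and TGACG in 17.8% of 32851 windows of the same length before mouse genes. Npy1r held an AP-1 match at -231 to -225 (6.75% of windows) and Apln a GC box at -144 to -139 (32.7%). Gfra1 held CCAAT on the opposite strand at -73 to -69 (33.8%). P2rx6 held CCAAT at -188 to -184, which shares 1 base with TATAAA on the opposite strand at -184 to -179 (12.4%), and a GC box at -19 to -14. No motif searched was in all 5 windows. The general E-box CANNTG, not capitalised, was in 4 of 5, all but P2rx6, and in 66.2% of all windows, and it overlaps CACGTG in Cck and the CCAAT match in Gfra1. Base composition also varied, from 50.8% G and C in P2rx6 to 65.2% in Apln, against a median of 52.4% over all windows. A match is a run of letters and says nothing of binding in these cells.

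Among the precursors, Cck encodes cholecystokinin, which empties the gall bladder and drives secretion of pancreatic enzymes. Its probe lies on chromosome 9 at 121398943 to 121399002 (build mm9, minus strand, as in the array annotation). In EXO-Post BSA replicates 1 to 4 the values were -1.73, -2.81, -2.65 and -2.83, and in EXO-Post Palm replicates 1 to 3 they were 1.92, 0.22 and 2.95. Every EXO-Post BSA array was below its 75th percentile and every EXO-Post Palm array above it, with a gap of 1.94 between the nearest arrays. The group means were -2.51 ± 0.52 (SD, n = 4) and 1.70 ± 1.38 (SD, n = 3), a difference of 4.20 or 18.4-fold. The probe was well above background on all 7 arrays, so neither level is a limit of detection.

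Apln encodes apelin, the ligand of the G-protein-coupled receptor APJ, which is known for effects on vessels, heart and glucose uptake by muscle. Its probe lies on the X chromosome at 45378593 to 45378652 (minus strand). Values were -6.33, -5.29, -6.05 and -5.79 in EXO-Post BSA replicates 1 to 4 and -2.05, -2.99 and -0.58 in EXO-Post Palm replicates 1 to 3. No EXO-Post BSA array was well above background, while all 3 EXO-Post Palm arrays were, and the groups did not overlap. The EXO-Post BSA level is therefore uncertain. For each of those arrays, the higher was taken of the probe's own signal and the array's lowest signal well above background. EXO-Post Palm then had 8.97-fold more signal, or 3.17 on the log2 scale. That is not a lower limit, because other processing gave 1.58 (normexp background correction with quantile normalisation) and 2.43 (the authors' processed values). The measured means were -5.86 ± 0.44 (SD, n = 4) and -1.87 ± 1.22 (SD, n = 3).

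Kng1 encodes a kininogen, from which kallikreins release bradykinin, a peptide that widens vessels and sensitises pain fibres. The probe for transcript variant 2, on chromosome 16 at 23081700 to 23081759 (plus strand), gave -2.59, -2.07, -2.01 and -3.96 in EXO-Post BSA replicates 1 to 4 and 0.94, -0.28 and 1.48 in EXO-Post Palm replicates 1 to 3. The groups did not overlap, and EXO-Post BSA replicate 4, which was not well above background, was the lowest of the 7. The means were -2.66 ± 0.91 (SD, n = 4) and 0.71 ± 0.90 (SD, n = 3), a difference of 3.37 or 10.3-fold. With normexp and quantile normalisation the difference was 2.43, and with the authors' processed values 2.80, so the fold varies with the processing. The probe for transcript variant 1, at 23079732 to 23079791, was well above background on none of the 7 arrays. Its values ran from -7.74 to -6.08 in EXO-Post BSA and from -6.73 to -6.05 in EXO-Post Palm and overlapped, and no fold is given. The 2 probes of Kng1 thus do not say the same, and the rise rests on the variant 2 probe alone.

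Kng2, the second mouse kininogen, is not a member but bears on Kng1, because the genes are close paralogs and whether either probe also picks up the other transcript was not tested. Kng2 was well above background on 0 of 4 EXO-Post BSA arrays and on 2 of 3 EXO-Post Palm arrays, replicates 1 and 3, and was therefore not tested. Its values were -6.84, -5.51, -6.60 and -6.43 in EXO-Post BSA and -1.91, -4.81 and -1.16 in EXO-Post Palm. The group values did not overlap, and no fold is given, because EXO-Post Palm replicate 2 was not well above background either. Its low array, EXO-Post Palm replicate 2, was also the lowest EXO-Post Palm array for Kng1.

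**Figure D1:**
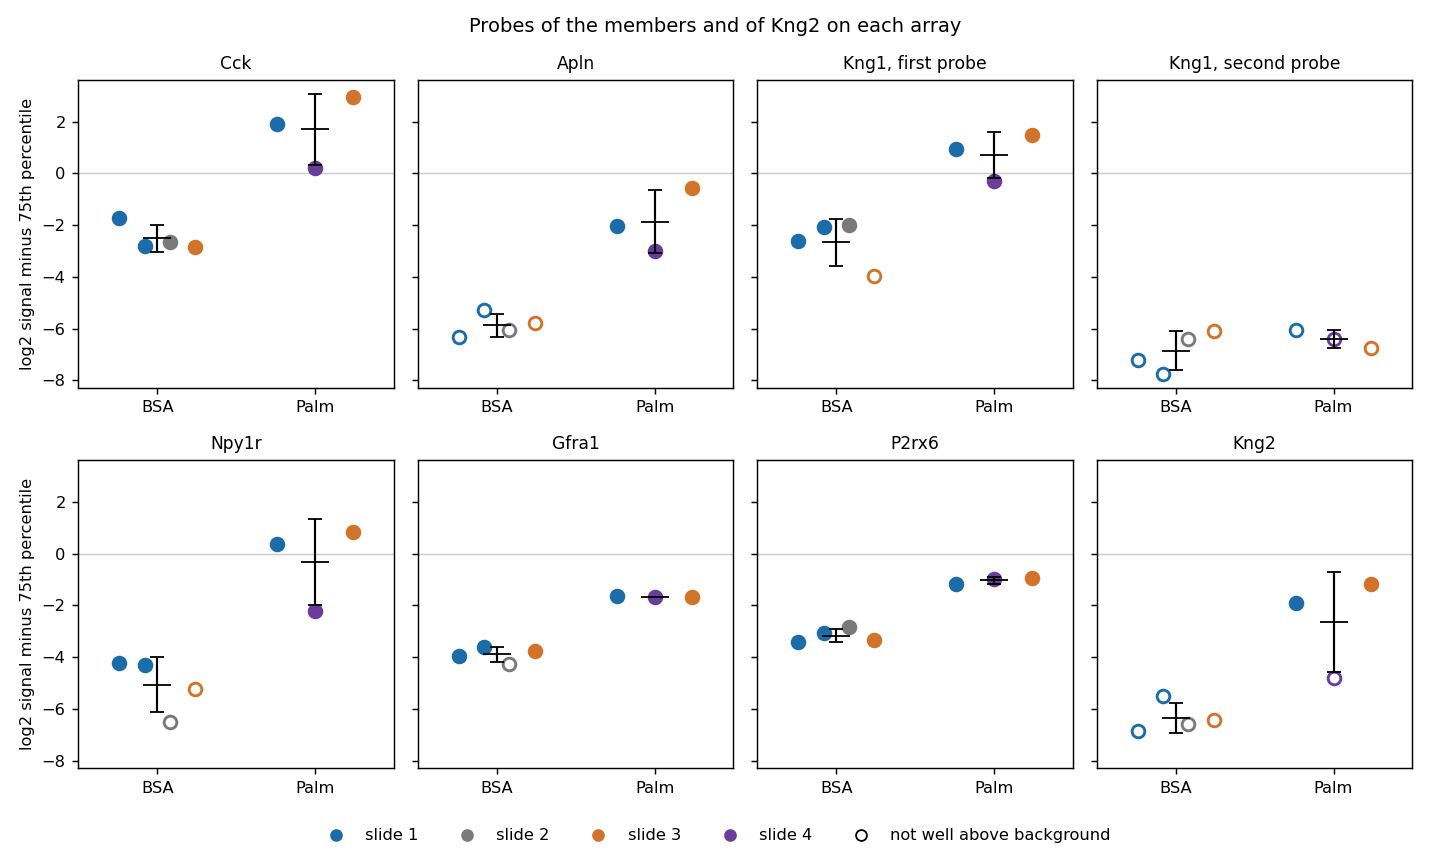
Each panel plots 1 probe, with the log2 signal minus the array's 75th percentile on the vertical axis, the arrays of EXO-Post BSA (4) and EXO-Post Palm (3) as points coloured by slide, and mean ± SD as a bar. Open points were not well above background. EXO-Post Palm lies above EXO-Post BSA for all 6 members and Kng2, except for the second Kng1 probe, which was not above background on any of the 7 arrays.

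Of the cell-surface proteins, Npy1r encodes the Y1 receptor, by which neuropeptide Y constricts vessels and promotes feeding. Its probe lies on chromosome 8 at 69230632 to 69230691 (plus strand). It gave -4.24, -4.30, -6.52 and -5.22 in EXO-Post BSA replicates 1 to 4 and 0.39, -2.23 and 0.85 in EXO-Post Palm replicates 1 to 3. Only EXO-Post BSA replicates 1 and 2 were well above background in that group, against all 3 EXO-Post Palm arrays, and the nearest arrays of the groups were 2.01 apart. The means were -5.07 ± 1.06 (SD, n = 4) and -0.33 ± 1.66 (SD, n = 3). Their difference was 4.74, but the EXO-Post BSA mean includes 2 arrays that were not well above background. With dim signals raised to the lowest signal well above background on their array, it was 4.04, and no exact fold is given.

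Gfra1 encodes the co-receptor, anchored to the membrane by a lipid, that presents GDNF to the RET kinase or to NCAM. Its probe lies on chromosome 19 at 58311604 to 58311663 (minus strand). EXO-Post BSA replicates 1 to 4 were at -3.95, -3.63, -4.25 and -3.76, and EXO-Post Palm replicates 1 to 3 were at -1.66, -1.68 and -1.68. All arrays but EXO-Post BSA replicate 3 were well above background. The 3 EXO-Post Palm arrays were within 0.029 of each other and all above EXO-Post BSA. The means were -3.90 ± 0.27 (SD, n = 4) and -1.67 ± 0.016 (SD, n = 3), a difference of 2.22 or 4.67-fold. That fold depends on the processing, as the difference was 1.08 with normexp and quantile normalisation and 1.45 with the authors' processed values.

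P2rx6 encodes a P2X subunit that forms ATP-gated cation channels, mainly together with other P2X subunits, and is known from skeletal muscle and neurons. Its probe lies on chromosome 16 at 17571293 to 17571352 (plus strand). The values were -3.41, -3.05, -2.84 and -3.36 in EXO-Post BSA replicates 1 to 4 and -1.19, -0.97 and -0.94 in EXO-Post Palm replicates 1 to 3. It was well above background on all 7 arrays, and the groups were 1.66 apart at their nearest. The means were -3.16 ± 0.27 (SD, n = 4) and -1.03 ± 0.14 (SD, n = 3), a difference of 2.13 or 4.39-fold. That difference was 1.63 with normexp and quantile normalisation and 1.97 with the authors' processed values.

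Of the 7 probes, 6 passed the filter for signal above background, 1 for each gene, and the second Kng1 probe did not. Apln and Npy1r passed it through EXO-Post Palm alone, the group in which they are high. The groups did not overlap for these 6 probes, against 5.32% of all 21589 tested probes that were higher without overlap. As the genes were picked for this difference, nothing is read from their count. RNA from all cells of a culture was pooled, so more RNA per cell and more cells that make it cannot be told apart.

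Within slide 1 EXO-Post Palm replicate 1 was above the mean of EXO-Post BSA replicates 1 and 2 by 4.19 for Cck, 4.66 for Npy1r, 3.76 for Apln, 3.27 for Kng1, 2.13 for Gfra1 and 2.05 for P2rx6. Within slide 3 the differences between 1 array of each group were 5.78, 6.07, 5.22, 5.44, 2.07 and 2.42 in that order. The direction was the same on both slides that held both groups. This follows from the lack of overlap between the groups and adds no support of its own. Cck, Npy1r, Apln, Kng1 and P2rx6 had the larger difference on slide 3 and Gfra1 on slide 1, with 1 EXO-Post Palm array on each slide.

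The members differed in how far their EXO-Post Palm arrays lay apart. Cck, Npy1r, Apln and Kng1 varied by 2.73, 3.09, 2.41 and 1.75 across the 3 arrays, with replicate 2 lowest and replicate 3 highest for each. Gfra1 and P2rx6 varied by 0.029 and 0.25. For comparison, the other 94 probes past the threshold and higher in EXO-Post Palm had a median range of 1.03, with quartiles of 0.76 and 1.22 and limits of 0.12 and 1.94. Cck, Npy1r and Apln varied more than all 94 and Kng1 more than 90 of them, while Gfra1 varied less than all 94 and P2rx6 more than 2. Those 94, like the members, passed a test that favours probes of low spread, and no test was made of these ranks. The probes were not matched for size of rise. The rises of Cck, Npy1r, Apln and Kng1 ranked 3, 1, 5 and 9 among the tested probes, and those of Gfra1 and P2rx6 79 and 95. Replicate 2 was the lowest EXO-Post Palm array for 5 of the 6 members, though all 3 lay within 0.029 for Gfra1, and for 69 of the other 94 probes (73.4%). That array was alone on slide 4, so its slide and its culture cannot be told apart.

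**Figure D2:**
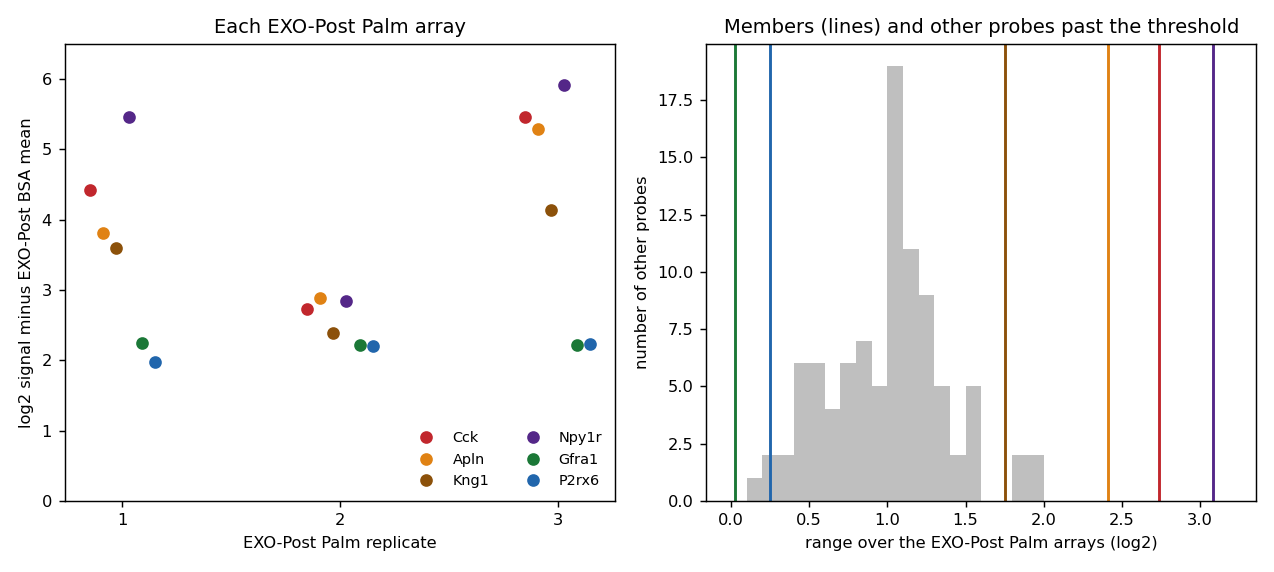
Left, the log2 signal of each member on each EXO-Post Palm array minus its EXO-Post BSA mean (vertical axis) by replicate (horizontal axis). Right, the range over the 3 EXO-Post Palm arrays on the log2 scale for the members (lines, same colours) and for the other 94 probes past the threshold and higher (grey bars, number of probes): Gfra1 and P2rx6 fall at the narrow end, and Cck, Npy1r and Apln beyond the widest of the others at 1.94.

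Over the 7 arrays the members' values correlated with each other at Pearson's r of 0.852 (Npy1r with P2rx6) to 0.965 (Cck with Npy1r). With 4 arrays low and 3 high for each gene, such values mostly repeat the group difference. The pair Gfra1 and P2rx6 reached 0.959. Between 1.05 and 1.75% of the other tested probes had r above 0.9 with a given member. The genes most like Cck over the 7 arrays were Angptl4, an inhibitor of lipoprotein lipase (r = 0.9944, difference 1.70), Cenpl, a centromere protein (r = 0.9927), and Kif20b, a mitotic kinesin (r = 0.9916). Those most like Npy1r were Kif15, another mitotic kinesin (r = 0.9953), Mmd (r = 0.9893) and Ect2, a regulator of cytokinesis (r = 0.9888, difference 2.64).

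For Apln the most alike were Dmbt1, a secreted scavenger receptor protein (r = 0.9956), Cenph, a kinetochore protein (r = 0.9931, difference 2.14), and 5330438D12Rik (r = 0.993). For Kng1 they were Mxd3, a bHLH partner of MAX (r = 0.9924), Espl1, the separase that parts sister chromatids (r = 0.99, difference 2.91), and Cyb561, a cytochrome of secretory granules (r = 0.9895). Gfra1 was closest to Bub1b, a spindle checkpoint kinase (r = 0.9906, difference 2.93), Cdca4 (r = 0.9867) and Xirp2, an actin-binding muscle protein (r = 0.9829). P2rx6 was closest to Hmgb2, a chromatin protein (r = 0.9927), D2Ertd750e (r = 0.9909) and Ccnb1, cyclin B1 (r = 0.99, difference 3.02). Across these most alike genes the differences ran from 0.44 (Cdca4) to 3.02 (Ccnb1), with Xirp2 at 0.7, 5330438D12Rik at 0.8 and Cenpl at 1.13. The correlations are descriptions over 7 arrays that share 2 groups and 4 slides.

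The partners of the members were followed with 9 lists of ligands, receptors, processing enzymes and other peptide hormones, 206 genes in all, of which 204 were on the array and 87 were above background often enough to be tested. Of the 87, 29 were higher and 58 lower in EXO-Post Palm, with a median difference of -0.14, against -0.02 over all tested probes, of which 47.3% were higher. By limma, with adjustment over all tested probes, 0 passed as higher and 1, Ntsr2, as lower, which is 1.15% of the 87 against 0.533% of all tested probes in either direction (0.463% higher and 0.0695% lower). At an unadjusted p under 0.05, 4 were higher and 11 lower, against 4.85% of all tested probes higher and 5.19% lower. Without overlap of the groups there were 4 higher and 8 lower, and over all tested probes 5.66% were lower in this sense.

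Few partners of Cck and Npy1r were above background often enough to be tested. For Cck, neither receptor gene (Cckar, Cckbr) nor gastrin (Gast) was tested, and the 1 gene tested was Tpst2, an enzyme that sulphates tyrosines of secreted proteins, at -0.35 (standard error 0.23, adjusted p = 0.657). For Npy1r, 2 of 8 partners were tested, the gut peptide Pyy at 0.18 (adjusted p = 0.920) and the pancreatic polypeptide receptor Npy4r, named Ppyr1 on the array, at -0.07, and neither passed. Pyy and Npy4r both changed sign between processing settings.

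For Apln, the receptor gene Aplnr was measured. Its values were -2.96, -2.60, -2.51 and -2.96 in EXO-Post BSA replicates 1 to 4 and -3.67, -4.05 and -5.87 in EXO-Post Palm replicates 1 to 3. Every EXO-Post Palm array was below every EXO-Post BSA array, and only replicate 1 of them was well above background, against all 4 of EXO-Post BSA. The difference of -1.77 (standard error 0.48) did not pass after adjustment (limma adjusted p = 0.222). The exact permutation p was 0.0286, 2-sided, the smallest that 4 against 3 arrays can give. That p is not adjusted, and 5.66% of all tested probes were lower without overlap. The size of the Aplnr difference is uncertain where the signal is dim. It was -0.85 with the normexp background correction, -1.34 with the authors' processed values and -1.11 without EXO-Post Palm replicate 3. Furin, a protease that cuts proapelin, was at -0.54 (adjusted p = 0.606). Ligand and receptor thus had measured differences of opposite sign, of which that of the receptor did not pass.

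For Kng1, 5 of 14 genes of the kallikrein-kinin system were tested, 4 of them higher, with a median of 0.34. Kng2, described above, is on this list but was not among the tested genes. Of the tested genes the largest difference was that of Bdkrb1, the B1 bradykinin receptor, which injury and cytokines induce. It was at -2.18, -1.89, -1.46 and -2.07 in EXO-Post BSA replicates 1 to 4 and at -1.03, -0.63 and -0.70 in EXO-Post Palm replicates 1 to 3. All EXO-Post Palm arrays were above all EXO-Post BSA arrays, and so also within both slides that held both groups (1.01 and 1.37). The difference of 1.11 (standard error 0.24) did not pass over all probes (limma adjusted p = 0.124, exact permutation p = 0.0286, 2-sided). This permutation p is not adjusted for the choice of the gene, and 5.32% of all tested probes were higher without overlap. Xpnpep1, a peptidase that breaks down bradykinin, was at -0.27 (adjusted p = 0.705).

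For Gfra1, 7 of 11 genes of the GDNF family system were tested, 1 higher and 6 lower, with a median of -0.35 and none past the threshold. The ligand gene Gdnf was at -0.53 (standard error 0.24, adjusted p = 0.512), and the kinase gene Ret was not tested. Gas1, a related surface protein that also binds RET, had the largest positive value at 0.55 (adjusted p = 0.499) by its brightest probe, and its other probes were at 1.28 (adjusted p = 0.0535) and 1.72 (adjusted p = 0.164). Nrtn, the ligand neurturin, had the lowest at -0.83 (standard error 0.84, adjusted p = 0.780), and leaving out EXO-Post Palm replicate 3 turned it to 0.44. Of the other co-receptors, Gfra2 was at -0.40 and Gfra4 at -0.02, with its other probes at 0.56 and 0.66, none of them past the threshold.

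For P2rx6, 12 of 19 genes of purinergic signalling were tested, 4 higher and 8 lower, with a median of -0.26 and none past the threshold. All 6 of the other P2X subunits were among them, from -0.26 for P2rx1, P2rx2 and P2rx5 to 0.55 for P2rx3 (adjusted p = 0.691) by their brightest probes. Further probes of P2rx3 and P2rx7 were at 0.04 and -0.61. None of these probes had a measured difference near the 2.13 of P2rx6, which was picked for its rise. The largest positive value was that of Nt5e, the ecto-enzyme that makes adenosine from AMP, at 0.90 (adjusted p = 0.456). The lowest was that of P2ry14, a receptor for UDP sugars, at -1.11 (standard error 0.31, adjusted p = 0.246).

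**Figure D3:**
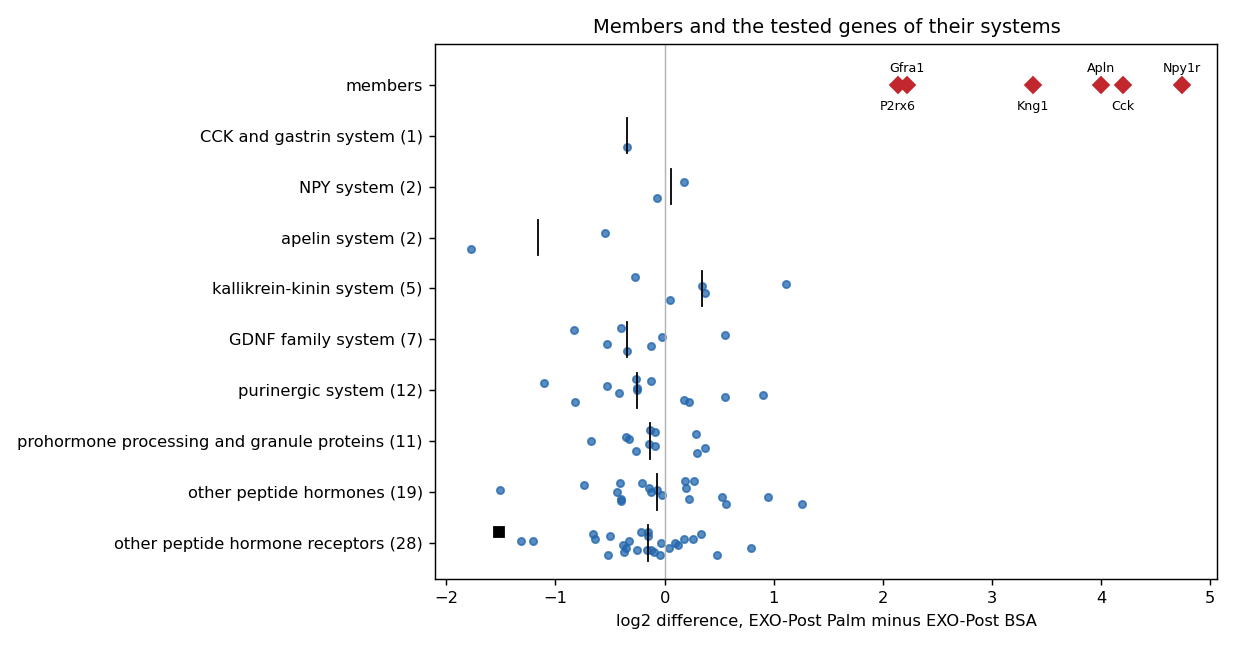
The horizontal axis is the difference on the log2 scale, EXO-Post Palm minus EXO-Post BSA. Diamonds are the 6 members, points the tested genes of 9 lists by their brightest probes (number tested in brackets), short lines the list medians, and the black square the 1 list gene past the adjusted threshold, Ntsr2. No point lies above 1.26, while the members lie from 2.13 to 4.74. As the members were picked for their rise, nothing is read from the gap. List genes that were not tested, Kng2 and Stc1 among them, are not drawn.

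Of 17 genes that process prohormones or pack them into granules, 11 were tested, 3 higher and 8 lower, and none passed. They ran from the convertase Pcsk6 at -0.68 (adjusted p = 0.584) to the convertase Pcsk2, the enzyme of endocrine and neural cells, at 0.37 (adjusted p = 0.798). Of 58 other peptide hormones 19 were tested and none passed. Adm, the gene of the vessel-widening peptide adrenomedullin, was at -3.50, -2.82, -2.93 and -3.67 in EXO-Post BSA replicates 1 to 4, the last not well above background, and at -1.97, -2.17 and -1.76 in EXO-Post Palm replicates 1 to 3. Its difference of 1.26 (standard error 0.27, adjusted p = 0.121) was the largest positive one among the tested genes of the list, which do not include Stc1. Edn1, the vessel-constricting peptide endothelin 1, had the lowest, -1.50 (standard error 0.39, adjusted p = 0.213), and was well above background on 1 of 3 EXO-Post Palm arrays. With the normexp correction Edn1 was at -0.56 and Adm at 0.63. Neither group of arrays overlapped the other for Adm or for Edn1. Of the 19 tested genes 2 were higher and 2 lower without overlap, against 5.32% and 5.66% of all tested probes.

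Of 69 other peptide hormone receptors 28 were tested, 8 higher and 20 lower, with a median of -0.16. At an unadjusted limma p under 0.05, 6 were lower and 0 higher, against 5.19% and 4.85% of all tested probes. Ntsr2, a neurotensin receptor, passed. It was at -2.93, -3.26, -2.49 and -2.84 in EXO-Post BSA replicates 1 to 4 and -4.54, -4.08 and -4.59 in EXO-Post Palm replicates 1 to 3, the last not well above background. It fell by 1.52 (standard error 0.25, limma adjusted p = 0.0436), but passed in only 1 of the 7 fits that leave out an array, and a block on slide, in which the arrays alone on slides 2 and 4 add nothing to the difference, ended the call (adjusted p = 0.0706). A dimmer Ntsr2 probe was at -1.89 (adjusted p = 0.133). Sstr4, a somatostatin receptor, had the largest positive value at 0.79 (adjusted p = 0.600). Genes were read by their brightest tested probe. As for Gas1 and Gfra4, the probes of Ramp1, a partner of the calcitonin receptor family, disagreed: the brightest was at 0.10 (adjusted p = 0.907) and the other at 1.54 (limma adjusted p = 0.0292).

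Markers of the cell types that are known to make these peptides were measured beside the members. Of 11 neuronal and neuroendocrine markers 8 were tested, 6 higher and 2 lower, and none passed. Of the 11, 7 were above background on all 7 arrays and 2 on no array. The synaptic protein gene Snap25 was at -1.61 (limma adjusted p = 0.0802), while Gap43, a growth cone gene, was at 1.09 (adjusted p = 0.466). Of 8 hepatocyte markers 3 were tested, 1 was above background on all 7 arrays and 4 on no array. Of 8 endothelial markers 3 were tested, from -0.12 to -0.03, and these 3 were above background on all 7 arrays, while 5 were on no array. Of 7 macrophage and leukocyte markers 4 were tested and none passed. They were Cd14 at 1.05 (limma adjusted p = 0.219), Adgre1 at 0.58, Csf1r at 0.45, with its other probe at -0.045, and Itgb2 at -0.48. Of the 7, 2 were above background on all 7 arrays and 1 on no array. The part of other cells in the members' difference was not tested beyond these values.

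The size of the members' difference changed with the processing, and its direction did not. With another background correction (normexp, with quantile normalisation), Apln was at 1.58 and Npy1r at 2.67, and Cck, which was above background on all 7 arrays, was at 3.69. With the authors' processed values Apln was at 2.43, Npy1r at 3.57 and Cck at 3.98. All 84 values of the 6 members under 14 alternatives each were above 0. Nothing is read from this count, because the members were picked for their rise. As their groups did not overlap, leaving out an array could not turn the sign.

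**Figure D4:**
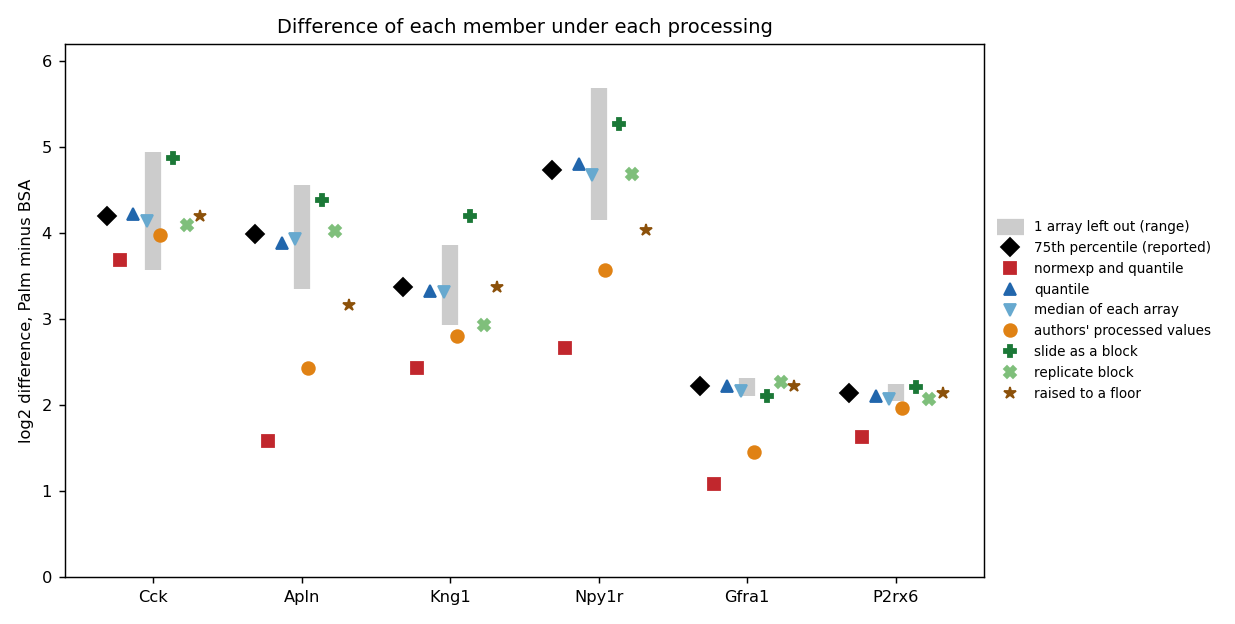
The vertical axis is the log2 difference, EXO-Post Palm minus EXO-Post BSA, of each member. Diamonds are the values reported, other marks the other processing, and grey bars the range with 1 array left out. All marks and bars lie above 0, and together they spread most for Npy1r, from 2.67 to 5.69, and Apln, from 1.58 to 4.55.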

How the data were processed

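Total RNA of 7 C2C12 cultures was measured on Agilent 1-colour 4x44K mouse arrays. The authors deposited, for each array, the scanner software output, in which the processed signal is a background-subtracted intensity before any normalisation, and a table with log2 values of the same arrays that share 1 distribution, the steps to which are not given in the sources used here. Per the labels the software was Feature Extraction 9.1, while the file headers give 10.7.3.1 for 6 arrays and 11.5.1.1 for EXO-Post BSA replicate 3. The methods name Agi4x44PreProcess and limma without settings.

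Here each deposited intensity was log2-transformed and centred on the 75th percentile of its array, control spots left out. Outlier spots were left out, none of them of a member, and spots of 1 probe were averaged. The log2 table deposited by the authors served as an alternative. A probe entered the test if 75% or more of the arrays of either group had it well above background (21589 of 39429). The comparison used limma 3.58.1 (R 4.3.3, prior degrees of freedom 3.67, 2-sided, Benjamini-Hochberg over all tested probes, threshold 0.05). For single genes, all 35 assignments of 7 arrays to the groups gave an exact permutation p. Each list gene was read by its brightest tested probe. The number of arrays limits the precision, and p-values measure only the spread between these cultures. Motifs were searched with Python 3.11.15, and figures drawn with matplotlib 3.10.9. Positions of probes come from the annotation of the array (mm9). The part of the transcript they lie in was not determined here.

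Members and lists were chosen with earlier results of these data known. Named were all members, the genes of each list that passed, its largest rise and fall, the 3 genes most correlated with each member, and the muscle marker with the highest mean. Oprm1, Ramp1, Kng2, Stc1, Snap25, Gap43, Gdnf, the macrophage and leukocyte markers and the P2X and GFRA partners were named after their values were seen. Alternatives covered background correction (normexp, offset 50), normalisation, probe filter, slide and replicate as blocks, array weights, the methods' t-test and leaving out each array; raising dim signals to a floor was added after the data were seen. On simulated data with 200 changed probes among 21589 the limma fit recovered 58 of 100 changed by 2 and 9 of 100 changed by 1 on the log2 scale, with 4 false calls among 71.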

Additional observations from a re-analysis of the deposited data

Results flagged for a closer look

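The Cck value of EXO-Post BSA replicate 1, -1.73, was far from the other 3 arrays of its group, which lay between -2.83 and -2.65. Of 24 groups of 4 arrays examined in this way 1 stood apart, and about 1.2 would by chance.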

How the results depend on the processing

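The 6 member differences were above 0 in 84 of 84 alternatives, from which nothing is read, as the members were picked for their rise. Of these values 77 moved by less than the SD within groups. With normexp and quantile normalisation the difference was 2.67 for Npy1r, 1.58 for Apln, 2.43 for Kng1, 1.08 for Gfra1 and 1.63 for P2rx6, and with the authors' processed values 2.43 for Apln and 1.45 for Gfra1. The cause was not tested. With 1 array left out they ran from 3.58 to 4.94 (Cck), 4.15 to 5.69 (Npy1r), 3.35 to 4.55 (Apln), 2.94 to 3.87 (Kng1), 2.11 to 2.31 (Gfra1) and 2.05 to 2.24 (P2rx6). The count of all probes past the threshold, 115, became 181 with slide as a random block, 180 with array weights, 0 without a probe filter, 2169 without adjustment, and 0 by the methods' t-test with adjustment or 2108 without. With 1 array left out it ran from 4 (without EXO-Post Palm replicate 3) to 228 (without EXO-Post Palm replicate 2), with 7 without EXO-Post Palm replicate 1 and 61 to 69 without an EXO-Post BSA array. The number of list genes past the threshold, 1, became 0 with quantile normalisation, the authors' values, slide as a block, no filter or the adjusted t-test, 15 without adjustment, 13 by the t-test without adjustment and 2 over every probe (Ntsr2 and Ramp1). It ran from 0 to 3 with 1 array left out, 3 of them without EXO-Post Palm replicate 2 (Ntsr2, Stc1 at 2.76 and Kng2, the last well above background on no EXO-Post BSA array). With normexp, and with the filter on all 7 arrays, the 1 gene was Oprm1 in place of Ntsr2, also lower, at -1.13 and -1.32. Among list genes named, none of which passed, Pyy turned to -0.061 with slide as a block and -0.043 with array weights, and Npy4r (Ppyr1) to 0.38 and, with slide as a random block, 0.026. With 1 array left out, Pyy ran from -0.17 to 0.53, Npy4r from -0.42 to 0.15, Nrtn from -1.66 to 0.44 and Pcsk2 from -0.061 to 0.62. The samples share only replicate numbers: deviations of same-numbered arrays correlated at 0.122, -0.15 and -0.148, and with the replicate block, to whose difference EXO-Post BSA replicate 4 adds nothing, 0 probes and 0 list genes passed, while Cck was at 4.10. Signal over background limits Apln, Npy1r and Gfra1, whose EXO-Post BSA levels lie at or near the limit. For the tested Kng1 probe it limits EXO-Post BSA replicate 4.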
